A study of Homo sapiens with 16 samples.

Results

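The SP100 nuclear body gene family is a cluster of 4 neighbouring genes on human chromosome 2, SP100, SP110, SP140 and SP140L. Their acetylation at lysine 27 of histone H3 (H3K27ac) was followed in 1000 bp windows placed on accessible chromatin. A window belonged to the family when the deposited annotation gave it one of these 4 gene names and its centre lay at most 50000 bp from the annotated transcription start site (TSS). The rule took 24 of the 151654 windows in the table, with 8 for SP100, 7 for SP110, 7 for SP140L and 2 for SP140. The farthest window kept was that of SP110 at +49395 bp, with 0.866 to 2.48 CPM (counts scaled to library size, per 1000 bp window) over the libraries. The nearest window left out was that of SP100 at +56061 bp, with 0.77 to 1.69 CPM, and 6 windows with a family name lay beyond the limit.

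SP100 is, together with PML, a defining protein of PML nuclear bodies, the spherical nuclear structures that take part in antiviral defence and in the silencing of foreign DNA. SP110, SP140 and SP140L are its paralogs and share with it an amino-terminal interaction domain and a DNA-binding SAND domain, while a PHD finger and a bromodomain, which read histone marks, are found in several family proteins. PML nuclear bodies grow in interferon-treated cells, and family genes are known interferon-stimulated genes. H3K27ac marks active promoters and enhancers. USP18 removes the ubiquitin-like protein ISG15 from its targets and, apart from that activity, restrains the type I interferon receptor.

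H3K27ac ChIP-seq was done in THP-1 cells, a human monocytic line from acute myeloid leukemia. The 4 groups held 2 libraries each: WT cells, whose genotype the labels give as Cas9 only while their treatment note names a control sgRNA, left untreated; WT cells given IFNα at 1000 U/ml for 6 h; USP18-/- cells, in which CRISPR guides had disrupted USP18, left untreated; and USP18-/- cells given the same IFNα for 6 h. Both genotypes carried Cas9. The knockout cells were grown from single-cell clones, so the effects of the clone and of the lost gene cannot be told apart. The study describes the libraries of a group as biological replicates. The p-values rest on the spread between them, which is mostly shared over all windows (80.8 prior against 4 residual degrees of freedom). The 8 matched input samples were not analysed here.

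The windows held between 9046141 and 12935453.5 tags per library. The share of a library's tags that fell in windows was 36.1 to 37.3% in WT and 38.4 to 42.5% in USP18-/- libraries. Scaling by all tags of a library (tag directory totals) was run as an alternative below. Beyond that, the part of this difference in the results was not tested. All 10 monocytic marker genes, among them SPI1 and CEBPA, had a window near the TSS above 1 CPM in every library. Of 8 markers of other cell types, 6 had no window within 3000 bp of the TSS, and the other 2, COL1A1 and NEUROD1, had median levels of 2.96 and 0.854 CPM. COL1A1 was thus also above 1 CPM in every library (lowest 1.98), and its median exceeded that of the monocytic marker CSF1R (2.08 CPM). At USP18 itself, the start window held 7.85 and 7.62 CPM in WT, 18.0 and 15.0 in IFN-treated WT, 8.20 and 8.47 in USP18-/-, and 49.2 and 41.7 CPM in IFN-treated USP18-/- cells, a mark that does not check whether the protein was lost. In bulk libraries, more marked nucleosomes per cell and more cells carrying the mark cannot be told apart.

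The promoters of the family are printed first, because the start windows described below cover them. Each line runs 5′ to 3′ along the gene's own strand, from 140 bases before to 20 bases after the RefSeq start in GRCh38.p14 (SP100 chr2:230416061-230416220, plus strand; SP110 chr2:230219965-230220124, minus strand; SP140 chr2:230225596-230225755, plus strand; SP140L chr2:230327053-230327212, plus strand). Capitals mark a stretch of 16 bases that SP110, SP140 and SP140L share without a mismatch and that SP100 holds with T9C, counted from the 5′ end of the stretch.
SP100: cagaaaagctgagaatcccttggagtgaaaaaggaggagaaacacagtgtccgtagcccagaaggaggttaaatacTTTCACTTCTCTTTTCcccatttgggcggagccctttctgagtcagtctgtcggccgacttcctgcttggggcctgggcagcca
SP110: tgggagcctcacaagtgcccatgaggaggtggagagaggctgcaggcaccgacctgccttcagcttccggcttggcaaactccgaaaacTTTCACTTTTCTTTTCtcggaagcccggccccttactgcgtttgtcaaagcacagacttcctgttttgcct
SP140: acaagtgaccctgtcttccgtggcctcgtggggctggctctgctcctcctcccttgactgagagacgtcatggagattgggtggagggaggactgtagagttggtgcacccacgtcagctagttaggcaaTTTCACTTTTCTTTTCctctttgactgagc
SP140L: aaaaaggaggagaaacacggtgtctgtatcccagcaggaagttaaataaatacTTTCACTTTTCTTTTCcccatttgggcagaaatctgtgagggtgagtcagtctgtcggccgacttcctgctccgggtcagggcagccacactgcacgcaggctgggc

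The capital stretch began 64 bases before the start in SP100, 51 in SP110, 10 in SP140 and 87 in SP140L. It was picked after the sequences were seen, as the longest run shared by the last 3 genes, so its presence in them is no result. Read on the opposite strand it is a run of GAAA-like repeats. Among 34943 RefSeq promoters of 300 bases, 4 held it exactly on either strand (0.0114%), and these were entries of SP110, SP140 and SP140L. With at most 1 mismatch, 13 promoters held it (0.0372%), among them those of SP100, BTN3A3 and RELA. The 300 bases were also aligned in pairs, and identity was taken over the alignment length with gaps counted. By this measure SP100 and SP140L were 76.8% identical, while the other pairs were 44.7 to 53.0% identical.

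The family spans 289716 bp. SP140 and the long form of SP110 start back to back, and the RefSeq start of SP140 lies in a window that the annotation names after SP110 (+39 bp), 46 bp from its centre. By annotation, 14 of the 24 windows lay in introns, 6 at promoters, 3 between genes and 1 in an exon. Windows that overlap share tags: 10 of the 24 overlapped another family window, in 5 pairs. All windows have the same length, so levels in CPM can be set side by side between genes. A window was tested when at least 10 rounded tags were found in at least 2 of the 8 libraries. That left 21 of the 24, with none for SP140.

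IFN treatment of USP18-/- cells raised H3K27ac across the starts of SP100, SP110 and SP140L. With a call defined as more than a 2-fold change and an adjusted p under 0.05 (edgeR's quasi-likelihood F test, adjusted by Benjamini-Hochberg across the 123276 windows), 11 of the 21 tested windows rose, against 7.14% of all tested windows. In the same comparison 0 fell, against 4.28% of all windows, by edgeR and by DESeq2. Past the adjusted p alone 2 were lower, the overlapping SP100 windows at +40439 and +40808 bp (edgeR adjusted p = 1.0e-03 and 5.4e-03). The share of all windows lower by that threshold is not given here, so this count has no background beside it. The risen windows were 4 of 8 for SP100, 3 of 7 for SP110 and 4 of 6 for SP140L. The median log2 fold change was 1.27 over the 21 windows and -0.01 over all tested windows. With 1 window kept per chain of overlapping windows, 8 of 17 rose. In WT cells, the same treatment gave 1 called window, against 0.344% of all windows, and a median log2 fold change of 0.38 against -0.01. No family window fell in WT cells, by edgeR or by DESeq2 or at an unadjusted p under 0.05, while 0.0381% of all windows did.

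**Figure D1:**
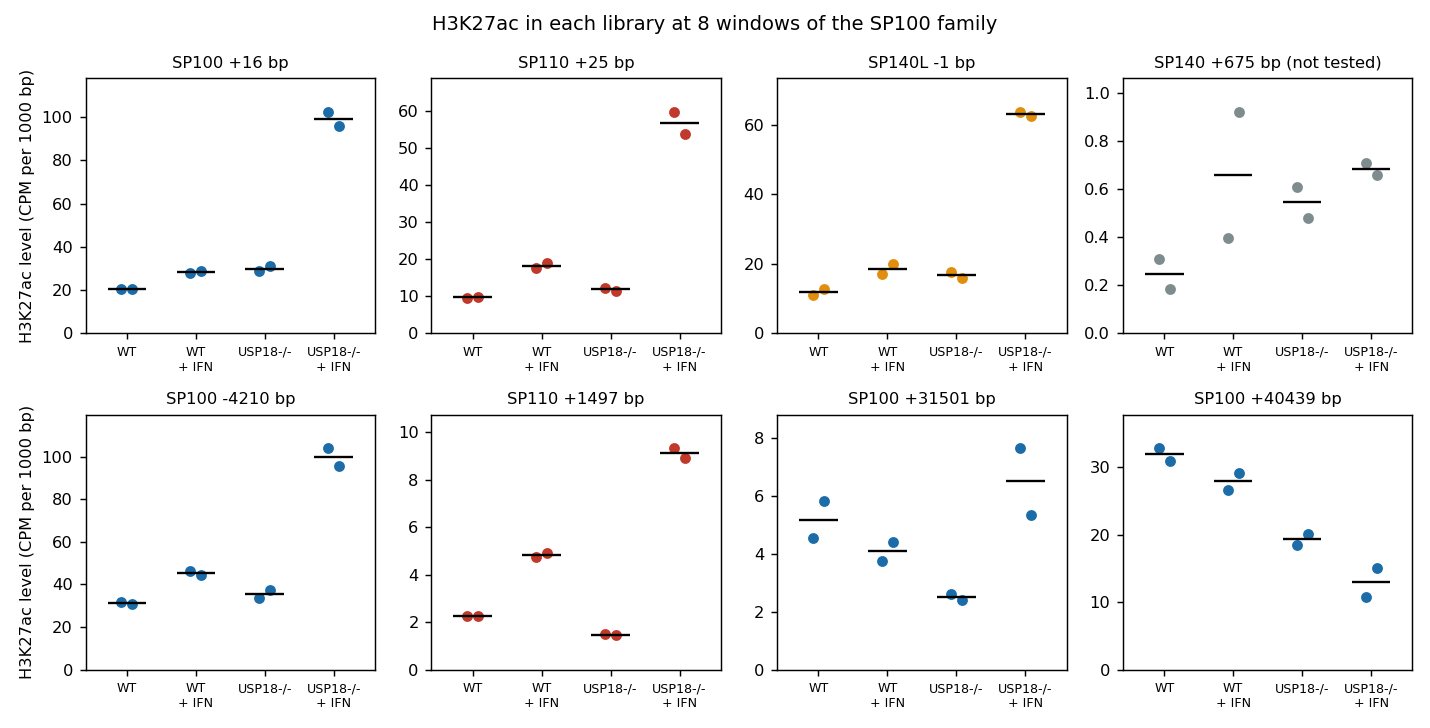
H3K27ac level in CPM per 1000 bp window (vertical axis, from 0, with its own range in each panel) in the 4 groups (horizontal axis) at 8 windows, named by gene and distance of the window centre from the TSS. Points are single libraries and black lines the group means. At the 3 start windows in the top row that were tested, IFN-treated USP18-/- libraries held 53.8 to 103 CPM, above all other libraries of the same window, whereas the SP140 window at +675 bp stayed under 1 CPM in all 8.

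SP100 encodes the protein that gives the family its name. Its start window (chr2:230415672-230416672, promoter-TSS, centre at +16 bp) held 20.6 and 20.6 CPM in WT, 27.6 and 28.8 in IFN-treated WT, 28.9 and 30.9 in USP18-/-, and 103 and 96.0 CPM in IFN-treated USP18-/- libraries. Untreated WT was lowest and the groups did not overlap, although IFN-treated WT and untreated USP18-/- lay next to each other. With IFN it rose 3.32-fold in USP18-/- cells (log2 1.73, SE 0.10, edgeR adjusted p = 6.8e-27). The log2 fold change in WT was 0.46 (SE 0.12, edgeR adjusted p = 0.032), short of a 2-fold change. Among 28847 tested windows within 3000 bp of a TSS, the share that lay below the SP100 start was 75.8% in untreated WT and 97.6% in IFN-treated USP18-/- cells.

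A window on an alternative SP100 start (chr2:230416075-230417075, -181 bp) overlaps the former. It held 16.4 and 14.5 CPM in WT, 19.5 and 17.1 in IFN-treated WT, 27.3 and 30.2 in USP18-/-, and 65.4 and 72.6 CPM in IFN-treated USP18-/- libraries. Here untreated USP18-/- cells already stood above IFN-treated WT cells. The rise with IFN was 2.40-fold in USP18-/- cells (log2 1.26, SE 0.11, edgeR adjusted p = 2.2e-17) and the log2 fold change in WT was 0.25 (SE 0.14, edgeR adjusted p = 0.61).

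The window with the highest mean level in the family lay upstream of SP100 (chr2:230411446-230412446, -4210 bp). The deposited annotation calls it intergenic, and GENCODE release 44 places an unnamed minus-strand gene model across it. It held 31.8 and 30.7 CPM in WT, 46.2 and 44.6 in IFN-treated WT, 33.6 and 37.2 in USP18-/-, and 104 and 95.7 CPM in IFN-treated USP18-/- libraries. Both IFN-treated groups stood above both untreated groups. The rise with IFN was 2.82-fold in USP18-/- cells (log2 1.50, SE 0.10, edgeR adjusted p = 6.8e-24), and the log2 fold change in WT was 0.54 (SE 0.11, edgeR adjusted p = 6.1e-04). At 60.5% GC this window was the richest in G and C of the 24.

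That upstream window holds a pair of overlapping matches to the interferon-stimulated response element (ISRE, here GAAA, any 2 bases, GAAA, on either strand), the sequence bound by IRF9 and other IRF proteins. They sit near its centre and are shown in capitals with the surrounding bases, on the plus strand of hg38 (chr2:230411881-230411946), so that they read as their reverse complement.
SP100 upstream window: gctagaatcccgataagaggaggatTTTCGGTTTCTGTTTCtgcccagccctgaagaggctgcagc
Another SP100 window, in intron 5 (chr2:230447757-230448757, +31501 bp), holds 2 overlapping matches to a composite of ETS and IRF letters (GGAA, any 2 bases, GAAA, on either strand), capitals below, on the plus strand of hg38 (chr2:230448239-230448303).
SP100 intron window: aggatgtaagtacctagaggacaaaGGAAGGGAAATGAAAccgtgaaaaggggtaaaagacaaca

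The intron 5 window moved differently from the SP100 start. It held 4.55 and 5.81 CPM in WT, 3.77 and 4.41 in IFN-treated WT, 2.62 and 2.41 in USP18-/-, and 7.63 and 5.35 CPM in IFN-treated USP18-/- libraries. Untreated USP18-/- libraries were lowest, and the ranges of untreated WT and IFN-treated USP18-/- libraries overlapped. With IFN it rose 2.58-fold in USP18-/- cells (log2 1.37, SE 0.26, edgeR adjusted p = 1.0e-05), and in WT the log2 fold change was -0.35 (SE 0.25, edgeR adjusted p = 0.75). It was one of 2 family windows called lower in untreated USP18-/- than in untreated WT cells.

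Farther into SP100, acetylation went the other way. A window in intron 8 centred on an L1MA8 repeat (chr2:230456695-230457695, +40439 bp) held 32.7 and 30.9 CPM in WT, 26.6 and 29.1 in IFN-treated WT, 18.5 and 20.1 in USP18-/-, and 10.8 and 15.1 CPM in IFN-treated USP18-/- libraries. In untreated WT cells it was above the SP100 start, and IFN-treated USP18-/- libraries were lowest, with no overlap between groups. With IFN, USP18-/- cells were 2.15-fold lower than WT cells (log2 -1.10, SE 0.14, edgeR adjusted p = 9.0e-11). Without IFN-treated USP18-/- replicate 1 it was log2 -0.93, and with near and far windows scaled apart -0.92, both short of a 2-fold change. The log2 fold change with IFN within USP18-/- cells was -0.58 (SE 0.14, edgeR adjusted p = 1.0e-03), which is past the adjusted p but not past a 2-fold change. The overlapping window at +40808 bp held 39.9 and 35.3, 31.3 and 34.4, 25.5 and 22.5, and 18.3 and 17.1 CPM in the same order of groups. Its log2 fold change between genotypes with IFN was -0.89 (SE 0.13, edgeR adjusted p = 3.0e-09), again short of the fold limit. Another intron 8 window, at +42677 bp, held 1.69 to 3.51 CPM and had a log2 fold change of -0.86 (SE 0.32, edgeR adjusted p = 0.023) in that comparison. No other sequence in hg38 matched these windows over at least 300 bp at 90% identity or more.

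SP110, which is linked in humans to an immunodeficiency with liver disease and whose mouse counterpart to the control of intracellular bacteria, had the largest rises with IFN. Its start window (chr2:230219587-230220587, promoter-TSS, +25 bp) held 9.50 and 9.80 CPM in WT, 17.4 and 18.8 in IFN-treated WT, 12.0 and 11.5 in USP18-/-, and 59.7 and 53.8 CPM in IFN-treated USP18-/- libraries. The groups did not overlap, and unlike at SP100, untreated USP18-/- lay below IFN-treated WT. The rise with IFN was 4.83-fold in USP18-/- cells (log2 2.27, SE 0.13, edgeR adjusted p = 4.2e-28), and the log2 fold change in WT was 0.91 (SE 0.15, edgeR adjusted p = 2.0e-05).

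The next SP110 window (chr2:230218115-230219115, intron 2, +1497 bp) was at a lower level and was the one family window called in WT. It held 2.27 and 2.27 CPM in WT, 4.76 and 4.92 in IFN-treated WT, 1.48 and 1.44 in USP18-/-, and 9.32 and 8.92 CPM in IFN-treated USP18-/- libraries. No groups overlapped. It rose 2.13-fold in WT (log2 1.09, SE 0.28, edgeR adjusted p = 0.028) and 6.19-fold in USP18-/- cells (log2 2.63, SE 0.27, edgeR adjusted p = 3.9e-14). The WT call was lost by DESeq2 (adjusted p = 0.45) and without any single WT library (edgeR adjusted p = 0.17 to 0.28).

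Inside the SP110 gene, a window on an L2 repeat (+10495 bp) also rose in USP18-/- cells, by 3.78-fold (log2 1.92, SE 0.59, edgeR adjusted p = 9.7e-03), on 2 to 16 tags per library. This call was lost by DESeq2 (adjusted p = 0.11) and without untreated USP18-/- replicate 2 (edgeR adjusted p = 0.14) or IFN-treated USP18-/- replicate 1 (edgeR adjusted p = 0.05). The remaining 3 intragenic windows, at +13378, +26041 and +49395 bp, held 0.31 to 2.84 CPM and were called in no comparison. The largest of their log2 fold changes with IFN was 1.61 (SE 0.67, edgeR adjusted p = 0.40), in WT at +26041 bp.

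SP140, a chromatin reader expressed mainly in white blood cells, carried little H3K27ac in any group. Its own start-side window (chr2:230225905-230226905, +675 bp) held 3 and 1.5 tags in WT, 4 and 9 in IFN-treated WT, 6.5 and 4.5 in USP18-/-, and 7.5 and 7 tags in IFN-treated USP18-/- libraries. At most 0.923 CPM was reached, which left it under the count minimum. Without that minimum, its log2 fold changes with IFN were 1.38 (SE 0.78, edgeR adjusted p = 0.68) in WT and 0.30 (SE 0.64, edgeR adjusted p = 0.84) in USP18-/- cells, and it was called in no comparison. The adjoining window that holds its RefSeq start held 0.62 to 1.33 CPM, with log2 fold changes with IFN of 0.67 (SE 0.57, edgeR adjusted p = 0.80) in WT and 0.18 (SE 0.50, edgeR adjusted p = 0.86) in USP18-/- cells. The intronic SP140 window (+41996 bp) held 0.297 to 0.751 CPM and was also not called without the count minimum. Only 0.225 to 4.63% of the tested windows within 3000 bp of a TSS lay below the +675 bp window in any group. SP140 carries the same capital stretch as its neighbours, and in each of the 8 libraries its start held less of the mark than theirs.

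SP140L, a paralog that sits between SP140 and SP100, resembled SP100 at its start. The start window (chr2:230326670-230327670, promoter-TSS, -1 bp) held 11.1 and 12.7 CPM in WT, 16.9 and 20.0 in IFN-treated WT, 17.5 and 15.9 in USP18-/-, and 63.9 and 62.7 CPM in IFN-treated USP18-/- libraries. IFN-treated WT and untreated USP18-/- libraries overlapped, and the other groups did not. The rise with IFN was 3.78-fold in USP18-/- cells (log2 1.92, SE 0.12, edgeR adjusted p = 2.3e-25), and the log2 fold change in WT was 0.63 (SE 0.14, edgeR adjusted p = 7.3e-03).

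The overlapping intron 1 window (chr2:230327076-230328076, +405 bp) held 5.58 and 8.44 CPM in WT, 8.92 and 9.54 in IFN-treated WT, 8.03 and 10.2 in USP18-/-, and 32.8 and 41.5 CPM in IFN-treated USP18-/- libraries. Only the last group stood apart from all others. It rose 4.08-fold with IFN in USP18-/- cells (log2 2.03, SE 0.15, edgeR adjusted p = 1.6e-20), and in WT the log2 fold change was 0.38 (SE 0.19, edgeR adjusted p = 0.56).

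An intron 2 window of SP140L on an L1M2 repeat (chr2:230347504-230348504, +20833 bp) was the other family window called lower in untreated USP18-/- cells. It held 6.40 and 3.54 CPM in WT, 4.66 and 5.74 in IFN-treated WT, 2.18 and 2.50 in USP18-/-, and 5.77 and 6.76 CPM in IFN-treated USP18-/- libraries. Untreated USP18-/- libraries stood below all others, and the range of untreated WT libraries overlapped those of both IFN-treated groups. With IFN it rose 2.67-fold in USP18-/- cells (log2 1.42, SE 0.27, edgeR adjusted p = 1.1e-05), and in WT the log2 fold change was 0.08 (SE 0.25, edgeR adjusted p = 0.96), which turned negative when WT replicate 2 was left out of either WT group (-0.30 and -0.08).

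Between SP140 and SP140L, a window at -8515 bp rose 2.40-fold with IFN in USP18-/- cells (log2 1.27, SE 0.40, edgeR adjusted p = 0.013), from 0.96 and 0.962 CPM to 2.31 and 2.35 CPM. The call was lost by DESeq2 (adjusted p = 0.16) and without any single USP18-/- library (edgeR adjusted p = 0.058 to 0.08). Its overlapping neighbour at -7867 bp had a log2 fold change of 0.84 (SE 0.39, edgeR adjusted p = 0.11). A stretch of 650 bp of that neighbour has a 90.3% identical copy at chr2:230408923-230409570, upstream of SP100 and outside the family windows, so its tags are uncertain. The window at +29076 bp held 0.289 to 1.74 CPM and was not called. The one at -37670 bp, which lies in an intron of SP140, was under the count minimum and has 1762 similar copies in the genome.

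**Figure D2:**
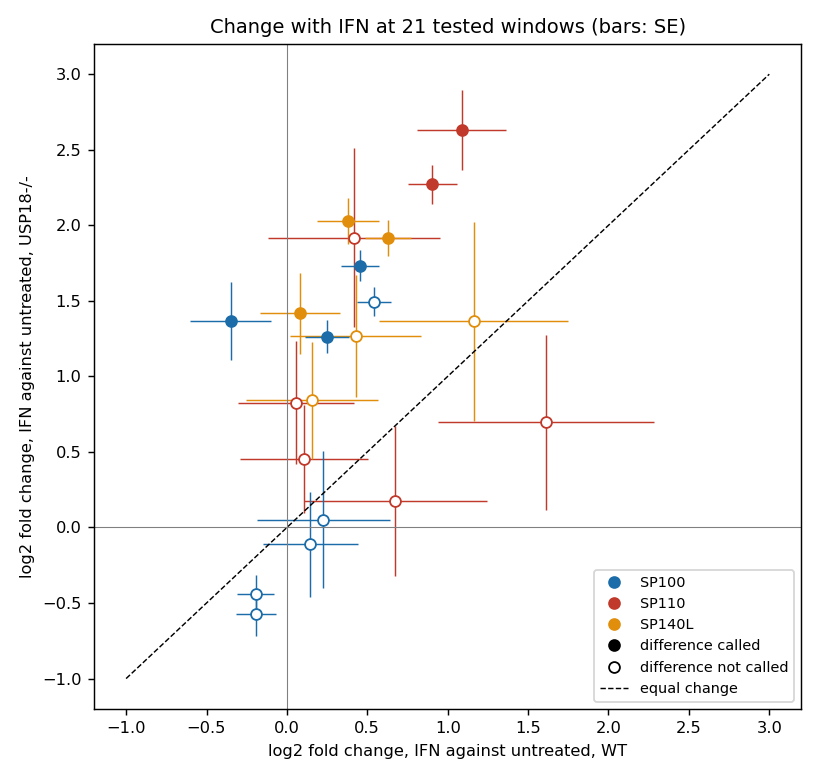
Log2 fold change with IFN in WT (horizontal axis) and in USP18-/- cells (vertical axis) for the 21 tested family windows, coloured by gene, with SE bars. Filled points are windows where the difference between both changes was called, and the dashed line marks equal change. The 8 filled points lie above the line, and the SP110 windows at +1497 and +25 bp have the highest values in USP18-/- cells (2.63 and 2.27).

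Whether IFN acted differently in the 2 genotypes was tested as the difference of the IFN effects (USP18-/- minus WT, on the log2 scale, in the same fit). It was called in 8 of the 21 windows in the direction of a larger effect in USP18-/- cells, against 4.66% of all tested windows. A smaller effect was called in 0 windows by edgeR and by DESeq2, with 1 lower value at an unadjusted p under 0.05, against 2.51% of all windows. The difference was 1.28 (SE 0.16, edgeR adjusted p = 3.8e-10) at the SP100 start, 1.37 (SE 0.20, edgeR adjusted p = 1.1e-07) at the SP110 start and 1.29 (SE 0.19, edgeR adjusted p = 9.3e-08) at the SP140L start. These 3 differences lay within about 1 SE of each other. The SP110 window at +1497 bp had a difference of 1.54 (SE 0.41, edgeR adjusted p = 4.3e-03) and the SP140L window at +405 bp one of 1.65 (SE 0.25, edgeR adjusted p = 2.5e-07).

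The largest difference of the IFN effects was at the SP100 intron 5 window, at 1.72 (SE 0.36, edgeR adjusted p = 2.0e-04), where only USP18-/- cells moved past the thresholds. The SP140L intron 2 window had a difference of 1.34 (SE 0.37, edgeR adjusted p = 6.6e-03), which fell to 0.86 (edgeR adjusted p = 0.24) without untreated WT replicate 1. The alternative SP100 start stood just above the fold limit, at 1.01 (SE 0.17, edgeR adjusted p = 4.8e-06), and the upstream SP100 window just below it, at 0.96 (SE 0.14, edgeR adjusted p = 2.0e-07). The alternative start fell below the limit, to between 0.91 and 0.93, without untreated WT replicate 1, IFN-treated WT replicate 2, untreated USP18-/- replicate 1 or IFN-treated USP18-/- replicate 2. It also fell below the limit under the other scalings, to 0.97 with near and far windows apart, 0.88 with the sum of counts and 0.95 with tag directory totals (chosen after seeing the data). The upstream window rose to 1.03 without untreated USP18-/- replicate 2. By DESeq2, 5 windows were called in place of 8, without SP110 at +1497 bp (adjusted p = 0.062), SP140L at +20833 bp (adjusted p = 0.12) and the alternative SP100 start (log2 1.00).

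Before treatment, the family did not differ between genotypes in one direction. In untreated cells 2 windows were called lower in USP18-/- than in WT, against 10.8% of all tested windows. These were the introns of SP100 (log2 -1.05, SE 0.27, edgeR adjusted p = 1.1e-03) and SP140L (log2 -1.07, SE 0.28, edgeR adjusted p = 1.4e-03), and when windows near and far from a TSS were scaled apart both fell short of a 2-fold change. The SP100 call was also lost without untreated WT replicate 2 (log2 -0.85, edgeR adjusted p = 0.057) or untreated USP18-/- replicate 2 (log2 -0.99), and the SP140L call without untreated WT replicate 1 (log2 -0.60, edgeR adjusted p = 0.22) or untreated USP18-/- replicate 1 (log2 -0.97), so that 1 call was left in each case. No window was called higher by edgeR or DESeq2, against 5.66% of all windows, and 3 had an unadjusted p under 0.05 with a higher value. Past the adjusted p alone, 4 windows were lower, against 16.8% of all windows, and 3 higher, against 16.9%. Beside the introns named above, the lower ones were the overlapping intron 8 windows of SP100 at +40439 bp (log2 -0.72, SE 0.13, edgeR adjusted p = 2.9e-06) and +40808 bp (log2 -0.64, SE 0.12, edgeR adjusted p = 5.1e-06). The higher ones were the SP100 start (log2 0.54, SE 0.12, edgeR adjusted p = 9.2e-05), the alternative SP100 start (log2 0.90, SE 0.13, edgeR adjusted p = 8.7e-09) and the SP140L start (log2 0.49, SE 0.14, edgeR adjusted p = 4.4e-03). When near and far windows were scaled apart, these were 0.23 (edgeR adjusted p = 0.12), 0.58 (edgeR adjusted p = 3.0e-04) and 0.18 (edgeR adjusted p = 0.37), in the same order. At the SP110 start the log2 fold change was 0.28 (SE 0.16, edgeR adjusted p = 0.17), and -0.03 with that scaling. The windows nearest the start of 16104 genes had a median of 0.31 in this comparison. The median over the family windows was -0.40, against -0.02 over all windows.

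With IFN in both genotypes, 6 windows were higher in USP18-/- than in WT cells, against 11.3% of all tested windows, and 1 was lower, against 13.4%. Other scalings gave 5 higher and 3 lower (sum of counts), 6 and 0 (near and far windows apart) and 6 and 2 (tag directory totals, chosen after seeing the data). The 6 were SP100 at +16, -181 and -4210 bp, SP110 at +25 bp, and SP140L at -1 and +405 bp, of which 5 lay at starts and the one at -4210 bp lay upstream. Their log2 fold changes ran from 1.14 (SE 0.10, edgeR adjusted p = 5.3e-18) at the upstream SP100 window to 2.01 (SE 0.15, edgeR adjusted p = 3.6e-20) at +405 bp of SP140L. Those of the 3 start windows were 1.81 (SE 0.10, edgeR adjusted p = 9.4e-28) for SP100, 1.65 (SE 0.12, edgeR adjusted p = 2.9e-21) for SP110 and 1.78 (SE 0.12, edgeR adjusted p = 1.5e-23) for SP140L. The 1 lower window was the intron 8 window of SP100 described above. The comparisons share libraries, so they are not independent of each other.

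**Figure D3:**
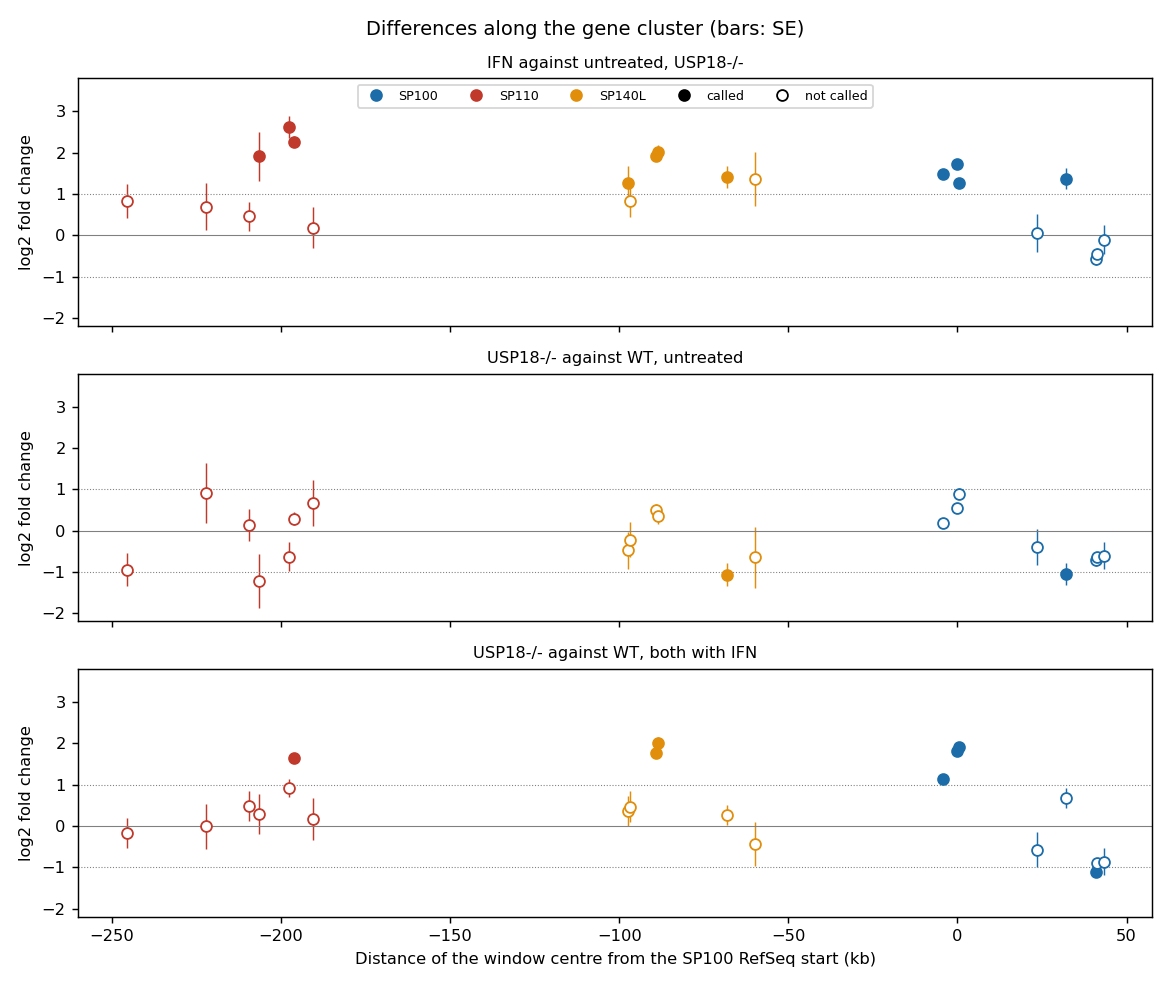
Log2 fold change (vertical axis, SE bars) of the 21 tested windows against the distance of the window centre from the RefSeq start of SP100 in kb (horizontal axis), for IFN in USP18-/- cells (top), USP18-/- against WT untreated (middle) and USP18-/- against WT with IFN (bottom). Filled points were called and dotted lines mark a 2-fold change. With IFN, the clusters of points at the starts of SP110, SP140L and SP100 stand between 1.14 and 2.01 in the bottom panel where called, and the intron 8 windows of SP100 at the right lie below 0.

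The rises did not run evenly through the neighbourhood. Within 500000 bp before the first family window, 23 tested windows of 4 other genes (DNER, FBXO36, SLC16A14 and TRIP12) had a median log2 fold change with IFN in USP18-/- cells of 0.26, with 1 called higher and 2 lower. Within the same distance after the last one, 51 windows of 5 genes, among them CAB39, ITM2C and GPR55, had a median of 0.15. Of these 51, 5 were called higher and 4 lower. Over all tested windows, 7.14% were called higher and 4.28% lower. Single values ran from -1.71 to 1.16 before the family and from -1.62 to 3.22 after it, while the highest family value was 2.63. In WT cells the medians of the flanks were 0.03 and 0.03.

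Across the 24 windows, matches to interferon-related letters were counted on both strands and set beside all tested windows of the same length. ISRE letters were found in 5 of 24 (20.8%) and in 17.1% of all tested windows. The composite ETS and IRF letters were found in 8 of 24 (33.3%) against 13.7%, and they can overlap ISRE letters where GAAA repeats run on. GAS letters (TTC, any 3 bases, GAA) were found in 6 of 24 against 25.6%, and NF-kB letters (GGGA, any 3 bases, TCC) in 4 of 24 (16.7%) against 12.6%. In the 21 tested family windows alone, the counts were 4 for ISRE, 7 for the composite, 6 for GAS and 4 for NF-kB. Overlapping windows can count the same bases again. This holds for the composite at -1 and +405 bp of SP140L and for NF-kB letters at -8515 and -7867 bp. The start windows of SP110 and SP140L differed in this respect. SP110 held GAS letters, and ISRE letters 395 bp from the window's centre, outside the promoter printed above. It carries the capital stretch without the composite letters. SP140L held the composite, which covers part of that stretch and the base after it. The window that holds the RefSeq start of SP140 (SP110 +39 bp) also held the composite on that stretch, and it was called in no comparison. The SP100 start window held neither ISRE nor composite letters, which says only that these letters are not in that window.

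PML nuclear bodies hold other proteins, and 19 of their genes were used to set the family in context. Of these, 18 had a tested window within 3000 bp of the TSS, and 1 window per gene was used, beside the same for 16104 genes. With IFN in USP18-/- cells, 3 of 18 rose, against 3.76% of the 16104 genes, and 0 fell by edgeR, against 1.76%, with 1 lower gene past the adjusted p alone, against 9.68%. With IFN in WT cells 1 of 18 rose, against 0.366%. Between untreated genotypes 0 were called by edgeR, against 6.51% higher and 3.91% lower, while 10 were higher in USP18-/- cells past the adjusted p alone, against 36.8%. With IFN in both genotypes, 5 of 18 were higher in USP18-/- cells, against 13.2%, and the difference of the IFN effects was called in 3, against 2.51%. The list's median log2 fold change with IFN in USP18-/- cells was 0.25, against 0.05 for the 16104 genes and 1.27 for the family windows.

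PML, the scaffold of the bodies, held 18.5 and 18.3 CPM at its start in WT, 30.0 and 29.1 in IFN-treated WT, 16.9 and 16.5 in USP18-/-, and 86.4 and 89.4 CPM in IFN-treated USP18-/- libraries. That is a rise with IFN of log2 2.39 (SE 0.11, edgeR adjusted p = 2.2e-33) in USP18-/- cells. HIRA, a histone H3.3 chaperone that joins the bodies in interferon-treated cells, rose by log2 2.66 (SE 0.12, edgeR adjusted p = 3.8e-35) in USP18-/- and 1.18 (SE 0.14, edgeR adjusted p = 3.2e-10) in WT cells. ISG20, an interferon-induced exonuclease found in the bodies, rose by log2 2.46 (SE 0.16, edgeR adjusted p = 4.1e-24) in USP18-/- cells. DAXX and ATRX, which load histone H3.3, had log2 fold changes of -0.06 and 0.08 in USP18-/- cells and were not called. SUMO2 and SUMO3, modifiers that help hold the bodies together, had log2 fold changes of 0.15 and -0.14 and were not called.

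**Figure D4:**
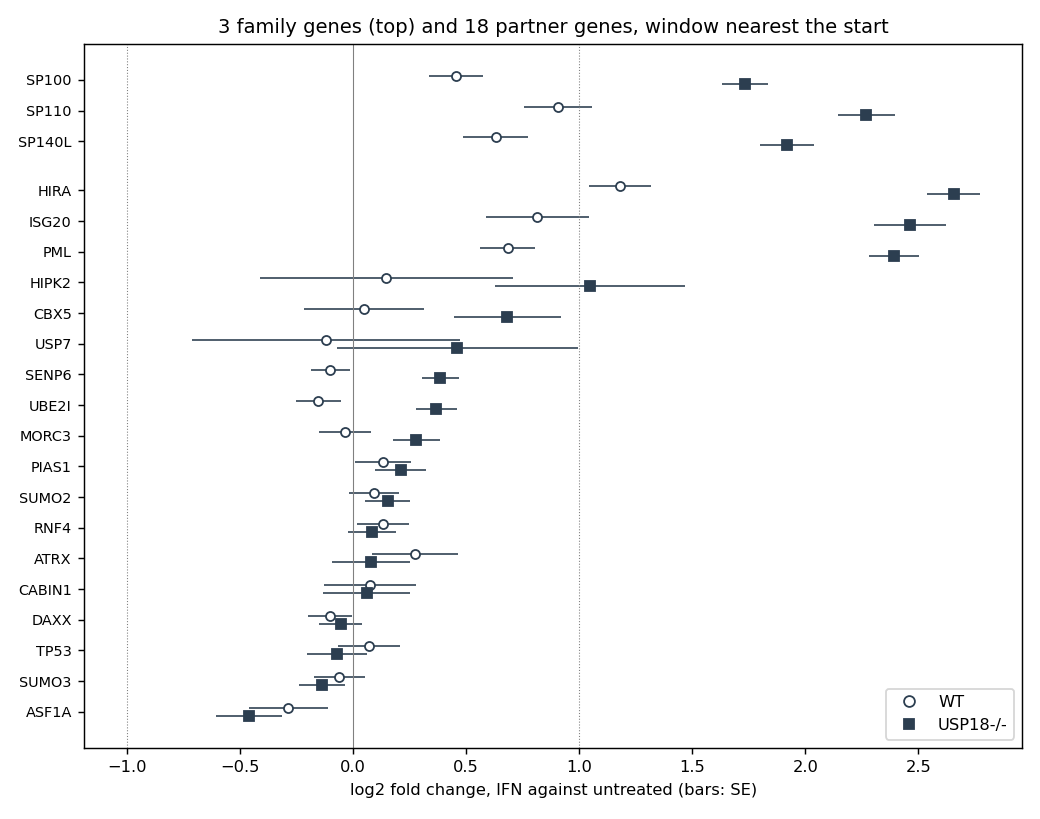
Log2 fold change with IFN (horizontal axis, SE bars) in WT (open circles) and USP18-/- cells (filled squares) at the window nearest the start of 3 family genes (top) and of 18 genes of PML nuclear body proteins, ordered by the change in USP18-/- cells. HIRA, ISG20 and PML lie at 2.39 to 2.66 in USP18-/- cells, beside the family genes at 1.73 to 2.27, and the remaining genes lie nearer to 0.

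Across the 8 libraries, the start windows of the 3 tested genes followed each other, with Pearson r of log2(CPM + 1) of 0.991 between SP100 and SP140L, 0.984 between SP110 and SP140L and 0.967 between SP100 and SP110. These values are descriptions over 8 libraries in 4 groups, in which IFN-treated USP18-/- libraries stand apart. Of 16101 other genes with a tested window within 3000 bp of the TSS, 437 followed SP100 with r above 0.95, 207 SP110 and 305 SP140L. The 5 most alike for SP100 were PSMB8, RABGAP1L, TENT5A, PLEKHA4 and CCR1, with r of 0.997 to 0.996. For SP110 they were LGALS9, SDS, TRIM5, ZNF107 and SAMD9, with r of 0.999 to 0.995. For SP140L they were IFI35, C19orf66, TRIM34, KRTAP5-3 and EXOSC9, with r of 0.998 to 0.995.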

How the data were processed

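H3K27ac ChIP-seq of THP-1 cells was compared over 4 groups of 2 libraries. Per the methods and the labels, the authors mapped reads to hg38 with Bowtie2, merged ATAC-seq peaks, and counted H3K27ac tags in 1000 bp windows at these peaks with HOMER. The deposited values are raw estimated counts, not normalized, since HOMER splits tags and only 52.2% of the values were whole numbers. No value column of the 8 libraries was left unmapped (0 columns), and a column that lists the peak calls behind each window was not used.

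Values were rounded to whole counts. Windows with at least 10 counts in at least 2 libraries were kept (123276 of 151654). Counts were scaled by TMM and tested with edgeR 4.0.16 (glmQLFit, glmQLFTest, limma 3.58.1, R 4.3.3) in 1 fit of 4 group means, with Benjamini-Hochberg adjustment over all 123276 windows. CPM values divide counts by the TMM-scaled library size. The spread shared by all windows (biological coefficient of variation) was 0.0737. The SE is the log2 fold change divided by the root of F. DESeq2 1.42.0 was an alternative. Each library held 9046141 to 12935453.5 tags in windows, so a window of 1 CPM rests on about 10 tags. Counts were simulated for IFN in USP18-/- cells, with 3-fold changes in 200 of 123276 windows. Of the 200, 197 were called in the right direction, and 6 unchanged windows were called. The changed windows were drawn only from those with higher mean counts, and all windows had the same spread. How often a change is found in windows with few tags was not tested. Sequences were read with pysam 0.24.0 from hg38 and from RefSeq promoters (GRCh38.p14), and similar copies were sought with BLAST+ 2.17.0.

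The family, its rule and the gene lists were chosen with earlier results of these data known. Windows named with full values were those nearest the TSS, those with the highest mean and up to 3 largest rises and falls per comparison, and the remaining family windows are given to account for all 24. Alternatives covered scaling, filter, thresholds, rounding, overlapping windows, distance and each library left out. Of the list of PML nuclear body genes, 1 gene is not reported here.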

Additional observations from a re-analysis of the deposited data

Results flagged for a closer look

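At 8 family windows the effect of IFN on H3K27ac differed between USP18-/- and WT cells by the test of the difference itself (edgeR's quasi-likelihood F test, adjusted by Benjamini-Hochberg, more than a 2-fold difference). In log2 units, USP18-/- minus WT, the difference was 1.54 at SP110 +1497 bp, 1.37 at SP110 +25 bp, 1.29 at SP140L -1 bp, 1.65 at SP140L +405 bp, 1.34 at SP140L +20833 bp, 1.28 at SP100 +16 bp, 1.01 at SP100 -181 bp and 1.72 at SP100 +31501 bp. The windows at -1 and +405 bp of SP140L overlap, as do those at +16 and -181 bp of SP100, so the 8 values are not separate measurements. Each group has 2 libraries, for which no test of a single outlying library was made.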

How the results depend on the processing

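In USP18-/- cells, between 8 and 11 family windows rose with IFN under all alternatives run, and 0 fell except with the adjusted p alone as threshold, where 2 did. That threshold gave 5 higher windows for IFN in WT, 3 higher and 4 lower in untreated USP18-/- against WT, and 3 lower with IFN. Shares of all windows past it are given above for the untreated comparison only, so the remaining counts have no background beside them. For IFN in WT, DESeq2 gave 0, as did leaving out any WT library (0 to 0). In untreated cells, leaving out a library gave 1 lower window (1 to 1), and scaling near and far windows apart gave 0. Taking windows within 10000 bp also gave 0, but only because the windows called lower lie beyond that limit. With IFN in both genotypes, 0 lower windows remained with near and far windows apart, while the sum of counts gave 3 and tag directory totals (chosen after seeing the data) 2. The count was also 0 with 1 window per chain and within 10000 bp, where the lower window at +40439 bp was not among those kept. Its chain kept the overlapping window at +40808 bp, which was short of the fold limit. The difference of the IFN effects was called in 5 windows by DESeq2.

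The sum of counts as scale moved the median log2 fold change of all tested windows to -0.14 for IFN in USP18-/- cells, -0.16 between untreated genotypes, -0.27 between genotypes with IFN and -0.13 for the difference. Over all windows the higher and lower calls for IFN in USP18-/- cells became 7454 and 7898 from 8797 and 5278, those between untreated genotypes 4957 and 16918 from 6983 and 13289, those with IFN 8757 and 24180 from 13913 and 16511, and those of the difference 4670 and 4779 from 5743 and 3093. Start window means on that scale were 22.1, 30.4 and 88.1 CPM for SP100 in WT, IFN-treated WT and IFN-treated USP18-/- cells, 10.4, 19.5 and 50.4 CPM for SP110 in the same groups, and 56.2 CPM for SP140L in IFN-treated USP18-/- cells.

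Some values short of the thresholds changed sign: SP110 +25 bp between untreated genotypes (-0.028, near and far windows apart) and SP140L +20833 bp between genotypes with IFN (-0.012, sum of counts). Leaving out 1 library, the values for IFN in WT ran from -0.30 to 0.55 at SP140L +20833 bp, with -0.08 between, from -0.32 to 0.91 at SP110 +10495 bp and from -0.00010 to 1.12 at SP140L -8515 bp. In the same way SP110 +10495 bp ran from -0.21 to 1.02 between genotypes with IFN, and SP140L -8515 bp from -0.91 to 0.21 between untreated genotypes. The cause was not tested. Of 896 log2 values over 12 windows under alternatives, 842 kept their sign and side of the thresholds.

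Deviations of libraries with the same replicate number had r from -0.004 to 0.0745 over windows, highest between untreated and IFN-treated USP18-/- libraries. Counting noise lowers such r values, so they cannot decide whether the numbers pair libraries. With the replicate number as a block, 11 windows rose with IFN in USP18-/- cells, 1 in WT, 2 were lower in untreated USP18-/- cells, 6 were higher and 1 lower with IFN, and 8 differed in the IFN effect. In the central 200 bp, ISRE letters were found in 2 of 24 windows, against 5.62% of all tested windows, and the composite in 5, against 5.80%. GAS letters were found there in 2, against 5.39%, and NF-kB letters in 0, against 2.82%. In the 21 tested family windows alone, these central counts were 1 for ISRE, 4 for the composite, 2 for GAS and 0 for NF-kB. Without the count minimum, the 3 family windows under it, both of SP140 among them, had SEs of 0.63 to 1.01 and 0 calls by edgeR, with 1 value at an unadjusted p under 0.05.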
